A study of Homo sapiens with 12 samples.

Results

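The genes described here encode the ligands, antagonists, receptors and signal carriers of the transforming growth factor beta (TGF-β) and bone morphogenetic protein (BMP) pathways, together with the *ID* genes that BMP signals switch on. They were chosen by gene symbol, and 29 of the 10976 genes in the deposited files belonged to them. Expression was measured by RNA sequencing in human cerebral organoids (COs), which are self-organizing cultures of early brain tissue. The COs were grown from unedited H1 cells (WT), an established human embryonic stem cell line, and from its edited lines KO#2 and KO#10, in which *c-JUN* was targeted with CRISPR-Cas9. Each KO line is a single clone. COs of all 3 lines were made by the same unguided neural induction and were collected at day 12 or day 24. RNA from several pooled COs made 1 library, with 2 libraries per line and day (2 WT and 4 KO libraries a day). The labels do not say whether libraries of a group came from separate cultures, so the p-values measure the spread between these libraries, which may be technical. The labels name the source as embryonic stem cells. The neural progenitor genes *PAX6* (34 to 112) and *SOX2* (34 to 146) were detected in all 12 libraries.

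TGF-β family ligands bind pairs of type I and type II receptor kinases on the cell surface. BMP ligands then act mainly through SMAD1, SMAD5 and SMAD9, and TGF-β, activin and GDF11 mainly through SMAD2 and SMAD3. Both branches share SMAD4, which enters the nucleus with the activated SMADs. In the developing brain, BMPs from the roof plate pattern the dorsal midline, and BMP antagonists allow neural tissue to form from ectoderm.

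Measured values are the whole-number scores that the authors deposited, which are normalized and are not read counts. All libraries had a median of 17 and a highest value of 5585, and the sequencing depth is unknown. Values were therefore compared between libraries of the same gene and not between genes. The marker lists are an exception, since their values were summed over genes, and genes with high values weigh most in the sums. Fold changes are differences of log2 (value + 1), tested with limma across every gene that reached 10 in 2 or more of the libraries under comparison. Calls were made at a Benjamini-Hochberg adjusted p under 0.05 and a change of at least 2-fold.

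RNA of *JUN*, the gene targeted, was no lower in libraries labelled KO than in WT. At day 12 its value was 4 and 8 in WT, 19 and 18 in clone KO#2, and 14 and 13 in clone KO#10. At day 24 it was 13 and 15 in WT, 39 and 39 in clone KO#2, and 29 and 32 in clone KO#10, which was called higher (log2 fold change 1.25, adjusted p = 0.0184 in limma). *JUN* RNA is thus no check of the KO labels here, on which the directions rest. The study reports loss of the protein in the KO lines by western blot, and no *c-JUN* RNA in KO COs by quantitative PCR. The RNA values here differ from that PCR result. Neither assay was analysed here, and the reason for the difference was not tested. The library of KO#10 replicate 1 at day 24 stood apart from the other 3 KO libraries of that day. For 14 of the 25 members tested (56%) it lay closer to the WT mean than to the mean of the other KO libraries, and for 45.6% of all 9289 genes tested. The other KO libraries did so for 4 to 6 of the 25 members and for 20.8% to 24.8% of all genes. Day 24 results are therefore given with and without it. It was picked by its values in these same data. For genes where it lay near WT, leaving it out widens the difference and narrows the KO spread. Calls and adjusted p-values without it are therefore descriptive and are no independent support.

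Of the members with values, *GDF11* is a ligand of the activin branch, and *BMP4*, *BMP5* and *BMP7* are BMP ligands. *LTBP1*, *LTBP3* and *LTBP4* encode matrix proteins that bind latent TGF-β. *BAMBI* encodes a pseudoreceptor that lacks the kinase, *FST* encodes follistatin, which binds and blocks activins, and *NOG* encodes noggin, which binds BMPs. There were 5 type I receptors, 4 type II receptors or co-receptors, 6 SMADs and 4 *ID* genes. The TGF-β genes *TGFB1*, *TGFB2* and *TGFB3*, *NODAL*, *BMP2*, *BMP6*, *CHRD*, *LEFTY1*, *LEFTY2*, *TGFBR2*, *SMAD6* and *SMAD7* were among the pathway genes not analysed here.

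**Figure D1:**
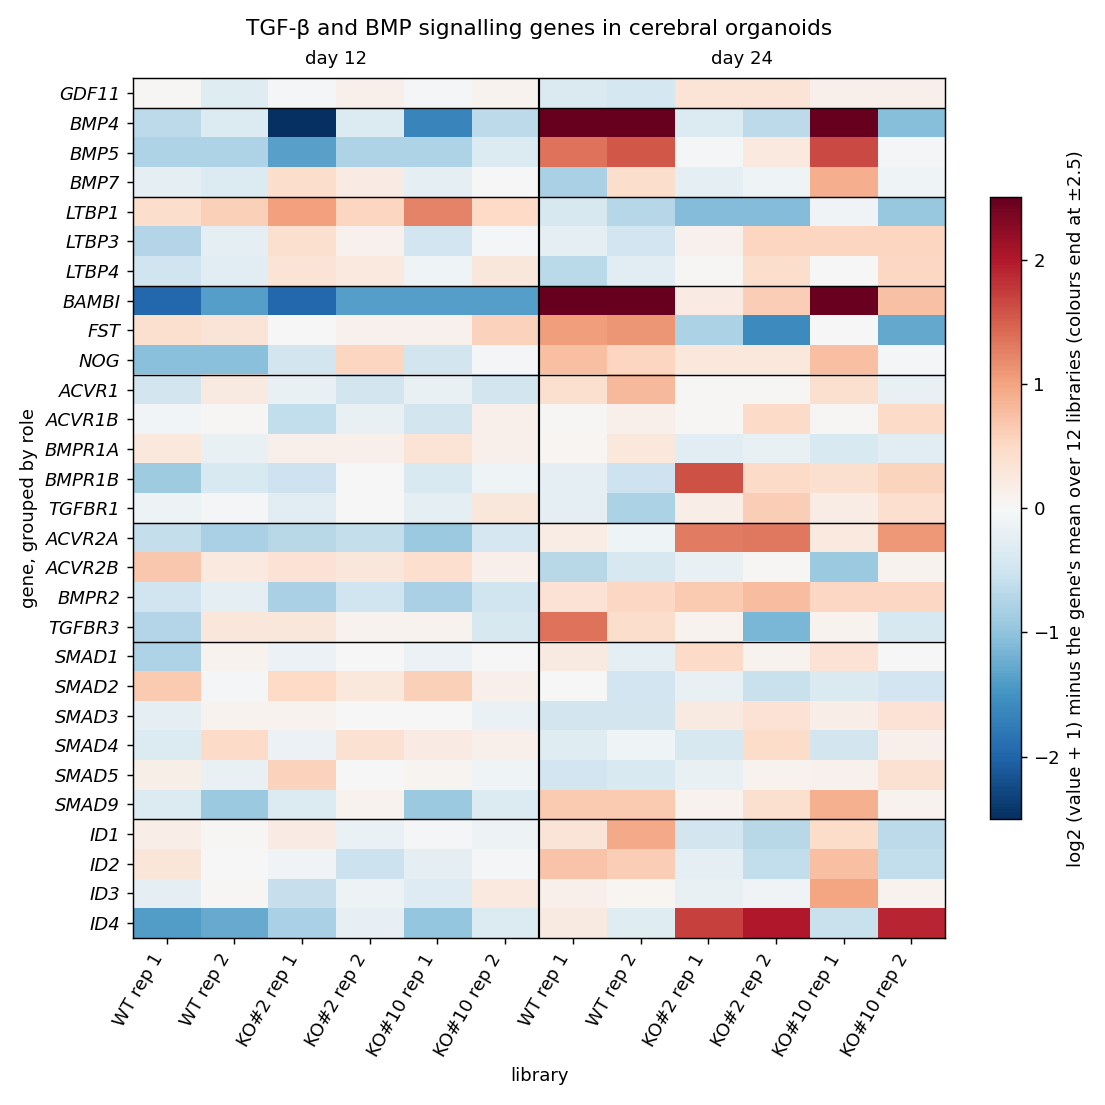
Values of the 29 genes in the 12 libraries, as log2 (value + 1) minus the mean of the gene over all libraries, with genes in rows grouped by role, libraries in columns and day 12 left of the vertical line. Colours end at 2.5 in either direction. *BMP4* and *BAMBI* are dark red, and *BMP5* is a lighter red, in both WT libraries and in KO#10 replicate 1 at day 24. *ID4* is red in the other 3 KO libraries of that day.

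Promoter sequence is shown for *BAMBI*, *BMP4* and *FST*, which had the largest falls between KO and WT means at day 24. The 250 bases before the start of transcription are printed from RefSeq (GRCh38.p14). They lie at chr10:28677271-28677520 on the plus strand for *BAMBI*, chr14:53955051-53955300 on the minus strand for *BMP4* and chr5:53480379-53480628 on the plus strand for *FST*. For *BMP4* the start used lies 3711 bases inside the listed 5′ end of the gene. Capitals mark GGCGCC, a GC-rich site that SMADs can bind, and TGANTCA, in which N is any base. The AP-1 site that JUN dimers can bind is TGACTCA or TGAGTCA, so TGANTCA is a looser pattern. GGCGCC and the pattern TGANTCA each read the same on both strands, while the TGATTCA marked in *FST* reads TGAATCA on the other strand.
BAMBI: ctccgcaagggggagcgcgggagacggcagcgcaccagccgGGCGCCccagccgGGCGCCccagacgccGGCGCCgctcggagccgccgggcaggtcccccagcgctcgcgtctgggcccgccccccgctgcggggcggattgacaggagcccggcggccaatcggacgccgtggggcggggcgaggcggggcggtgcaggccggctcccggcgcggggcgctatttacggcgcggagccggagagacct
BMP4: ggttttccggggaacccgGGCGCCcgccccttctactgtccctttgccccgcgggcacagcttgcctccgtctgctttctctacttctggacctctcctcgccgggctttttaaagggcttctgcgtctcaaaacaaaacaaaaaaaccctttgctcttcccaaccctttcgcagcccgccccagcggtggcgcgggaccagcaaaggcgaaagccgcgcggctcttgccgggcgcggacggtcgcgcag
FST: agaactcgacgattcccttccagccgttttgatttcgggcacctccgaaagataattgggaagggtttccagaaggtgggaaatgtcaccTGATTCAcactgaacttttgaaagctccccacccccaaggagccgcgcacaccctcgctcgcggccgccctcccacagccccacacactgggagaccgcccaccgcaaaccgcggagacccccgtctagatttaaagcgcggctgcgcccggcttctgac
The *BAMBI* window held GGCGCC 3 times, beginning 209, 196 and 181 bases before the start. In *BMP4* it began 232 bases before the start. The *FST* window held TGATTCA, beginning 160 bases before the start, which fits the looser pattern but is neither TGACTCA nor TGAGTCA. Promoters were found for 27 of the 29 members, with 54 windows over their alternative starts (*NOG* and *BMP7* had no entry). GGCGCC was in 13 of these windows (24.1%), in 11 genes, and in 16.4% of all 35116 windows. TGANTCA was in 4 windows (7.41%), of *ACVR1*, *FST*, *SMAD1* and *SMAD3*, and in 6.57% of all windows. The match was TGACTCA in *ACVR1* and *SMAD1* and TGAGTCA in *SMAD3*. Shares of TGACTCA and TGAGTCA alone were not counted. TGACGTCA, the CRE site that JUN and ATF dimers can bind, was in 1 window (1.85%), of *LTBP1*, and in 1.65% of all. GTCTAGAC, which holds paired SMAD half-sites, was in no member's window and in 0.182% of all. The windows of *ID1*, *ID2*, *ID3* and *ID4* held none of these letters. A match describes sequence, and binding was not measured.

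At day 12 no member was called between KO and WT. Values of 20 of the 29 members passed the filter, 0 of them were called, and 0.0900% of all genes tested were. The lowest adjusted p among the members was 0.248 (limma), for *LTBP4*. At an unadjusted p under 0.05 there were 2 members, *LTBP4* and *ID4*, against 11% of all genes. The median log2 fold change of the members was 0.07, against -0.00 over all genes. The replicate numbers of the labels paired the libraries of day 12, but the p-values given for day 12 are from the fit without pairs. With the replicate as a block 0 members were called, while the share of all genes called rose to 0.799%.

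*ID4*, which encodes an inhibitor of basic helix-loop-helix factors, was among the members whose KO values lay above both WT values at day 12. *ID4* was 19 and 21 in WT, 29 and 45 in clone KO#2, and 26 and 41 in clone KO#10 (log2 fold change 0.75, adjusted p = 0.275 in limma). *LTBP4* was 28 and 33 in WT, 51 and 48 in clone KO#2, and 37 and 49 in clone KO#10. In both genes the groups did not overlap, but the difference did not pass the adjusted threshold. All 4 KO values lay above both WT values for 3 of the 29 members (10.3%), *ID4*, *LTBP4* and *NOG*, against 7.7% of all 10976 genes. They lay below for 1 member, *ID2* (3.45%), against 7.93% of all genes.

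At day 24 *FST* was the member that passed both the adjusted p and 2-fold, and it fell in KO. *FST* was 24 and 25 in WT, 6 and 3 in clone KO#2, and 11 and 4 in clone KO#10. All 4 KO values lay below both WT values, and KO#10 replicate 1 was the highest of them. The log2 fold change was -1.99 ± 0.42 (SE; 2 WT and 4 KO libraries, adjusted p = 0.0312 in limma). *FST* was the only one of the 25 members tested that was called at day 24 (4%), against 8.01% of all 9289 genes tested, of which 3.79% were called lower and 4.22% higher. Its call was lost without KO#2 replicate 1, KO#2 replicate 2 or KO#10 replicate 2 (adjusted p from 0.0666 to 0.0831 in limma). In those fits 0.165% to 2.88% of all genes were called, so the loss was not particular to *FST*. Leaving out a WT library leaves 1 WT library, and *FST* was not called then, at a log2 fold change of -2.02 or -1.97. Of the fits that left out 1 library, only that without KO#10 replicate 1 kept the call. In bulk RNA, fewer cells that express a gene and less RNA per cell cannot be told apart.

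Of the 25 members tested at day 24, 16 had a positive and 9 a negative log2 fold change. Their median was 0.18, against 0.01 over all genes. At an adjusted p under 0.05 and any fold there were 4 members, against 14.6% of all genes tested. At an unadjusted p under 0.05 there were 13 of 25 members, against 37.8% of all genes. *NOG*, *ACVR1*, *TGFBR3* and *SMAD9* did not pass the filter. Their values at day 24 lay between 2 and 16.

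The ligands *BMP4* and *BMP5* were low in 3 of the 4 KO libraries and near WT in the other. *BMP4*, a roof plate and epidermal BMP, was 50 and 43 in WT, 4 and 3 in clone KO#2, and 35 and 2 in clone KO#10. *BMP5* was 12 and 14 in WT, 4 and 5 in clone KO#2, and 15 and 4 in clone KO#10. For *BMP4* all KO values lay below WT, while for *BMP5* the value of KO#10 replicate 1 was above both WT values. The *BMP4* log2 fold change was -2.80 ± 0.93 (SE, adjusted p = 0.0772 in limma), and that of *BMP5* was -1.0 ± 0.49 (SE, adjusted p = 0.182). Neither was called over all 4 KO libraries. Without KO#10 replicate 1 both were called lower, at -3.60 ± 0.25 for *BMP4* (SE, adjusted p = 0.00275) and -1.39 ± 0.20 for *BMP5* (SE, adjusted p = 0.00785). *BMP7*, at 7 and 18 in WT, 11 and 12 in clone KO#2, and 25 and 12 in clone KO#10, had overlapping groups, and its log2 fold change was 0.30 (95% interval -0.72 to 1.31).

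*BAMBI* was split between libraries in the same way as *BMP4*. It was 48 and 52 in WT, 8 and 11 in clone KO#2, and 42 and 12 in clone KO#10. All KO values lay below WT, with KO#10 replicate 1 close to WT. The log2 fold change was -1.70 ± 0.57 (SE, adjusted p = 0.0801 in limma) and -2.19 ± 0.19 without KO#10 replicate 1 (SE, adjusted p = 0.00333). Of the promoters printed above, that of *BAMBI* holds 3 of the GC-rich sites and that of *BMP4* holds 1, while the windows at other *BMP4* starts hold none. The site is in 16.4% of all windows, and a link to these values was not tested.

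**Figure D2:**
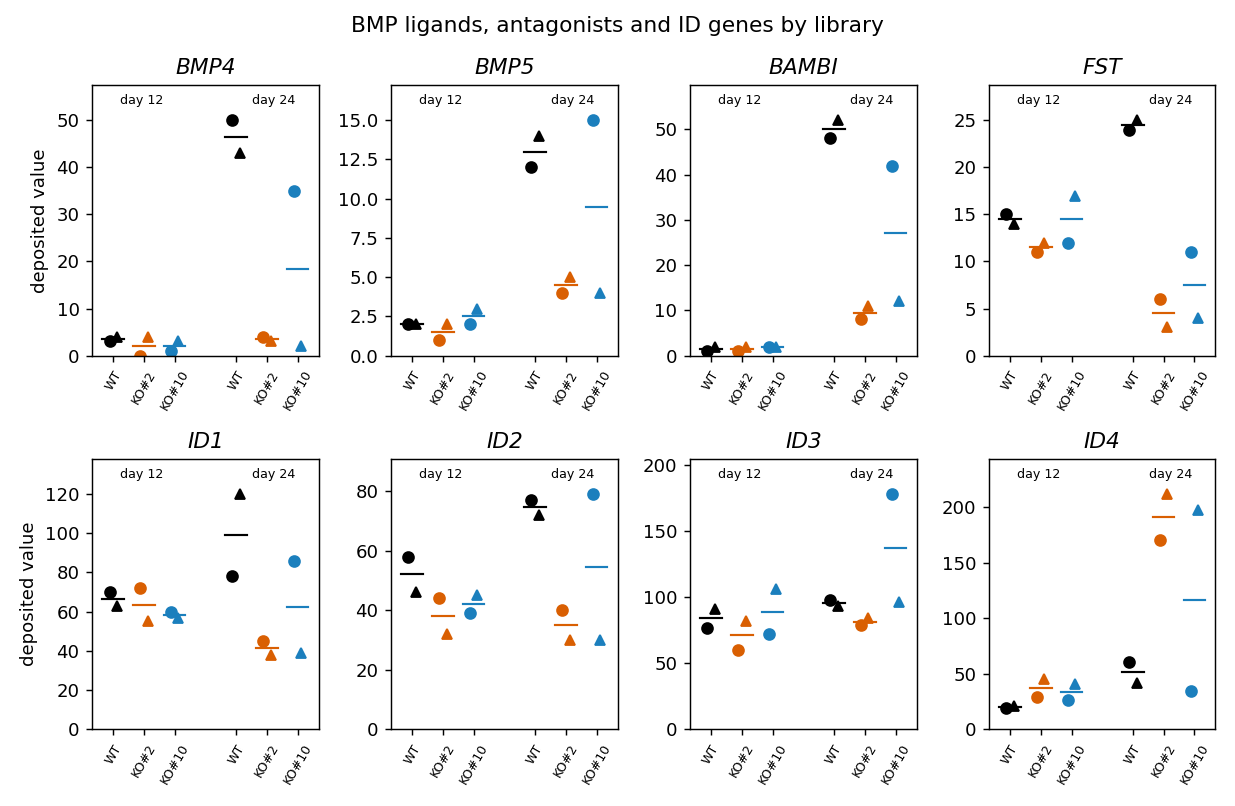
Deposited values (normalized score, linear axis from 0) of *BMP4*, *BMP5*, *BAMBI*, *FST* and the *ID* genes in each library at day 12 and day 24. Circles are replicate 1, triangles replicate 2 and lines the mean of a line's 2 libraries. At day 24 the blue circle (KO#10 replicate 1) lies near the black WT points for *BMP4* (35), *BAMBI* (42), *ID2* (79) and *ID4* (35), and the other 3 KO libraries lie apart.

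The *ID* genes encode small proteins that block differentiation factors, and they moved in different directions at day 24. *ID1* was 78 and 120 in WT, 45 and 38 in clone KO#2, and 86 and 39 in clone KO#10. *ID2* was 77 and 72 in WT, 40 and 30 in clone KO#2, and 79 and 30 in clone KO#10. In both, 3 KO libraries were below WT and KO#10 replicate 1 was within or above it. *ID4* was 61 and 42 in WT, 171 and 212 in clone KO#2, and 35 and 198 in clone KO#10. Here 3 KO libraries were above WT and KO#10 replicate 1 was below it. *ID3* was 98 and 93 in WT, 79 and 84 in clone KO#2, and 178 and 96 in clone KO#10, so that the groups overlapped.

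None of the 4 *ID* genes was called over all 4 KO libraries. Their log2 fold changes were -0.97 for *ID1* (adjusted p = 0.0966 in limma), -0.84 for *ID2* (adjusted p = 0.151), 0.11 for *ID3* (adjusted p = 0.815) and 1.30 for *ID4* (adjusted p = 0.216). Without KO#10 replicate 1, *ID1* (-1.23, adjusted p = 0.0113) and *ID2* (-1.15, adjusted p = 0.00812) were called lower and *ID4* was called higher (1.91, adjusted p = 0.00429). *ID3* was at -0.15 in that fit (adjusted p = 0.405 in limma).

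Among the type II receptors, *ACVR2A*, an activin receptor, was higher in KO in value but was not called. *ACVR2A* was 25 and 20 in WT, 55 and 56 in clone KO#2, and 26 and 47 in clone KO#10. The KO values lay above WT, and KO#10 replicate 1 exceeded the nearest WT library by a single unit. The log2 fold change was 0.95 (adjusted p = 0.0765 in limma), and 1.2 without KO#10 replicate 1, where it was called (adjusted p = 0.00653). The annotation places *ORC4* over the same interval, and no source used here says if reads were counted by strand. *ACVR2B* (25 and 31 in WT, 21 to 44 in KO) and *BMPR2* (8 and 9 in WT, 9 to 11 in KO) had overlapping groups.

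Of the type I receptors, *BMPR1B* and *TGFBR1* had the largest differences. *BMPR1B*, a BMP receptor, was 10 and 8 in WT, 38 and 17 in clone KO#2, and 16 and 18 in clone KO#10. All KO values lay above WT, and KO#2 replicate 1 was the highest. Its log2 fold change was 1.13 ± 0.35 (SE, adjusted p = 0.0646 in limma), and 1.25 without KO#10 replicate 1, where it was called (adjusted p = 0.0471). *TGFBR1*, the TGF-β type I receptor, was 50 and 34 in WT, 67 and 92 in clone KO#2, and 68 and 80 in clone KO#10. Its KO values lay above WT in all 4 libraries, KO#10 replicate 1 included. The log2 fold change of 0.87 passed the adjusted p (0.0377 in limma) but not 2-fold, and with the replicate as a block the adjusted p was 0.0519. *BMPR1A* was 18 and 21 in WT and 13 to 15 in KO, and it was the only receptor other than *TGFBR3* with all KO values below WT (log2 fold change -0.45, adjusted p = 0.0656 in limma). *ACVR1B*, at 13 and 14 in WT and 13 to 18 in KO, had a log2 fold change of 0.17 (95% interval -0.28 to 0.62).

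The 5 SMADs tested differed by less than 2-fold between the group means. *SMAD3*, of the TGF-β and activin branch, was 12 and 12 in WT, 20 and 22 in clone KO#2, and 19 and 22 in clone KO#10. It was higher in every KO library, by a log2 of 0.74 (95% interval 0.43 to 1.05, adjusted p = 0.0227 in limma), which is under 2-fold. *SMAD5*, of the BMP branch, was 40 and 43 in WT, 49 and 60 in clone KO#2, and 61 and 73 in clone KO#10. Its groups did not overlap either, and the difference was a log2 of 0.53 (adjusted p = 0.0742 in limma). *SMAD1* (0.23, 95% interval -0.23 to 0.70), *SMAD2* (-0.15, -0.57 to 0.27) and *SMAD4* (0.14, -0.51 to 0.78) had overlapping groups and intervals that include 0. *SMAD2* was 103 and 74 in WT and 70 to 91 in KO, and *SMAD4* was 78 and 90 in WT and 70 to 133 in KO.

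**Figure D3:**
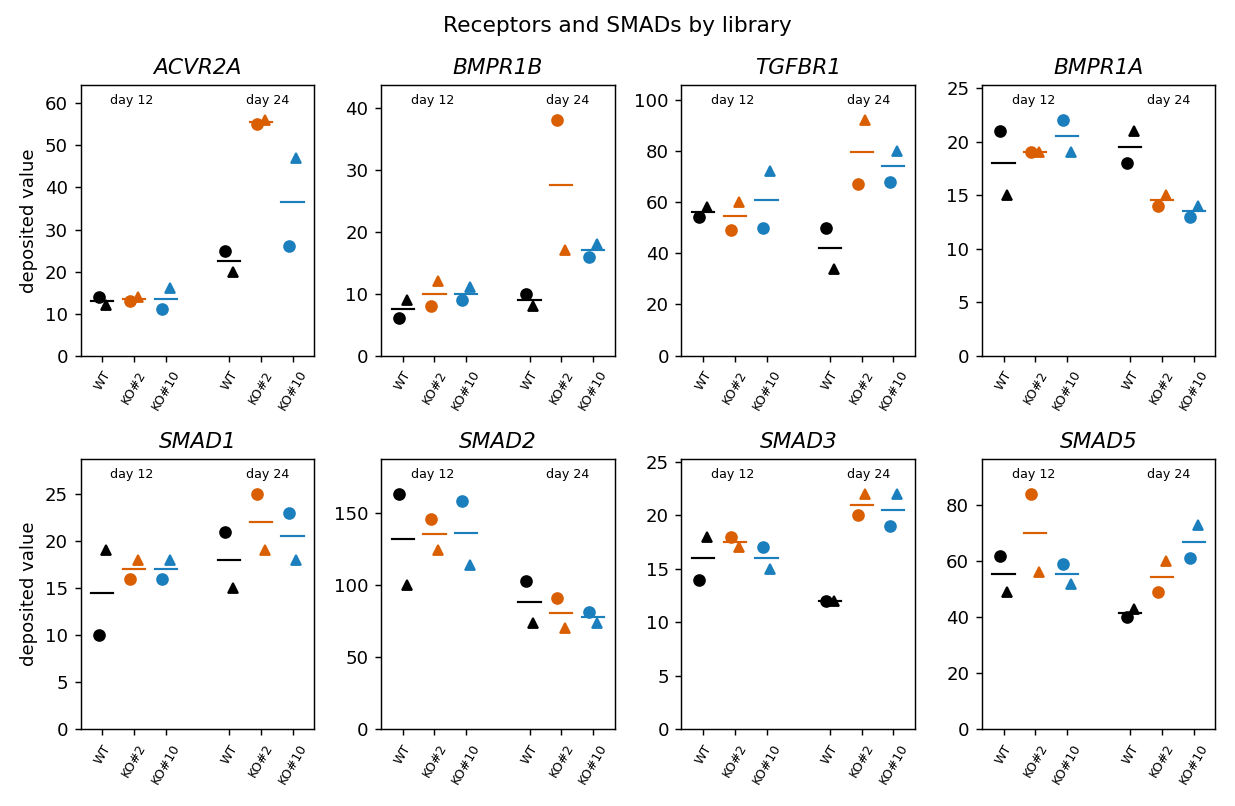
Deposited values (normalized score, linear axis from 0) of 4 receptors and 4 SMADs in each library at day 12 and day 24, with circles for replicate 1, triangles for replicate 2 and lines for the mean of a line's 2 libraries. For *TGFBR1*, *SMAD3* and *SMAD5* all 4 KO libraries of day 24 lie above WT, while at day 12 the lines overlap.

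The ligand *GDF11* and the latent TGF-β binding genes *LTBP3* and *LTBP4* had KO values above both WT values at day 24. *GDF11* was 18 and 17 in WT, 30 and 30 in clone KO#2, and 26 and 26 in clone KO#10 (log2 fold change 0.65, adjusted p = 0.0290 in limma), also under 2-fold. *SARNP* overlaps *GDF11* in the annotation. *LTBP3* was 6 and 5 in WT, 8 and 11 in clone KO#2, and 11 and 11 in clone KO#10 (0.79, adjusted p = 0.0543 in limma). It passed the filter through KO libraries alone. *LTBP4* was 25 and 33 in WT, 41 and 55 in clone KO#2, and 40 and 58 in clone KO#10 (0.72, adjusted p = 0.0589). In none of these genes did KO#10 replicate 1 fall among the WT values. *LTBP1* (15 and 12 in WT, 9 to 19 in KO) had overlapping groups.

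Over the 29 members, all 4 KO values lay above both WT values for 8 (27.6%) and below for 5 (17.2%) at day 24, against 21.8% and 20.1% of all genes. The 8 were *GDF11*, *LTBP3*, *LTBP4*, *BMPR1B*, *TGFBR1*, *ACVR2A*, *SMAD3* and *SMAD5*, and the 5 were *BMP4*, *BAMBI*, *FST*, *BMPR1A* and *TGFBR3*. Without KO#10 replicate 1 the counts were 10 and 12, against 29.5% and 26.7% of all genes. In that fit 9 of the 25 members were called, 3 higher and 6 lower, against 14.7% of all genes tested. The library left out was picked by its nearness to WT, so these calls are descriptive.

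**Figure D4:**
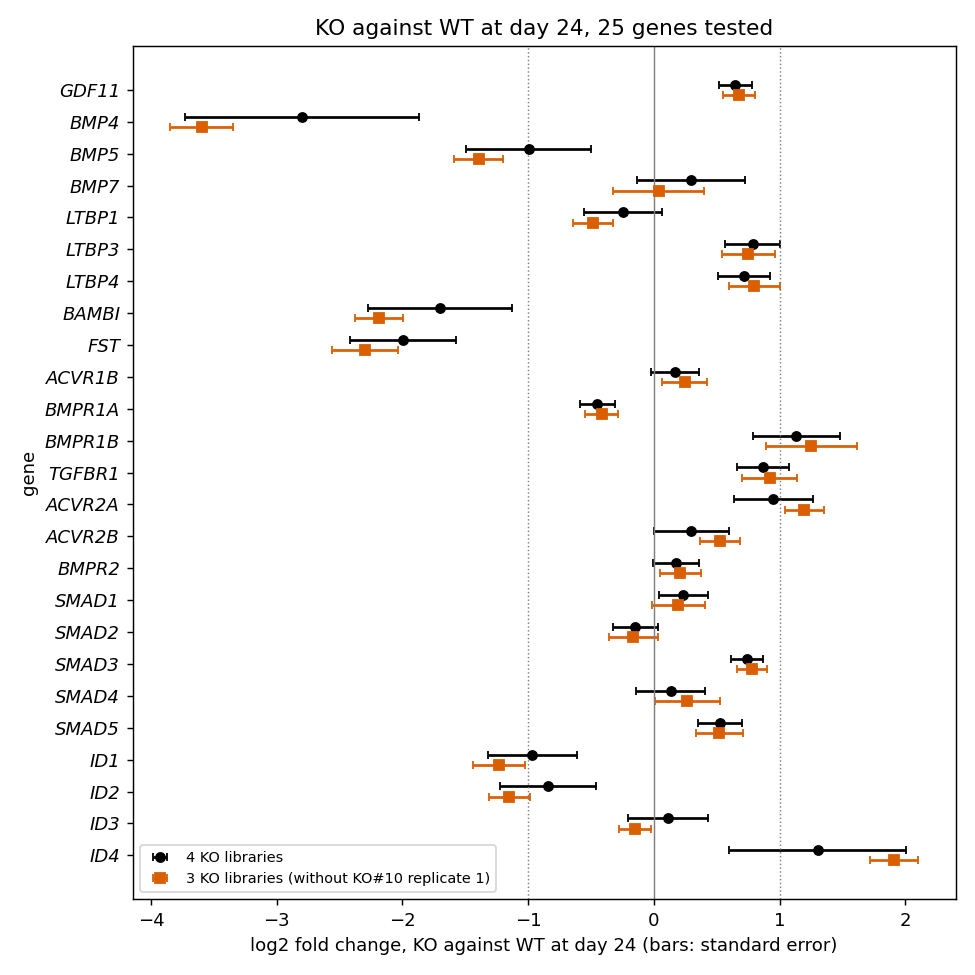
Log2 fold change of KO against WT at day 24 for the 25 members tested, with standard errors as bars, over all 4 KO libraries (black circles) and without KO#10 replicate 1 (orange squares). Dotted lines mark 2-fold. *BMP4*, *BAMBI*, *ID2* and *ID4* lie further from 0 without that library, whereas *GDF11*, *SMAD3* and *TGFBR1* move little.

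Some marker lists of other cell types were split between the libraries of day 24 in the way of *BMP4* and *BAMBI*, and others were not. The mesoderm and mesenchyme list (8 of 15 genes with values) summed to 2038 and 1836 in WT, 141 and 100 in clone KO#2, and 1985 and 124 in clone KO#10. *COL3A1*, a fibrillar collagen of mesenchyme, was 903 and 821 in WT, 1009 in KO#10 replicate 1 and 28 to 60 in the other KO libraries. *PRRX1*, a mesenchymal transcription factor, was 6 and 12 in WT, 28 in KO#10 replicate 1 and 4 to 5 in the others. No mesenchyme gene with values was at 0 at day 24. In the sum, as for *BMP4* and *BAMBI*, the 3 high libraries were both WT libraries and KO#10 replicate 1. *COL3A1* and *LUM* (1009 and 903 in WT, 822 in KO#10 replicate 1) made up most of the sum there. *PDGFRB* was not split in this way, at 4 in both WT libraries, 18 in KO#10 replicate 1 and 4 to 5 in the others. Of 7 genes of the list tested, all 7 had a negative log2 fold change and 1 was called lower.

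The neuron list (11 of 12 genes with values) summed to 343 and 181 in WT, 1668 and 2069 in clone KO#2, and 433 and 1432 in clone KO#10. Its 3 high libraries were those with the highest *ID4* and *ACVR2A*. *MAP2* was the largest part of the sum in these (668 and 1009 in clone KO#2, and 750 in KO#10 replicate 2). Of 10 genes of the list tested, all 10 had a positive log2 fold change and 4 were called higher. The roof plate and choroid plexus list (9 of 12) summed to 490 and 558 in WT, 95 and 197 in clone KO#2, and 464 and 207 in clone KO#10. *TTR*, which is also on the endoderm list, made up most of the WT sums (424 and 471). Without it the list summed to 66 and 87 in WT and 73 to 334 in KO, with KO#10 replicate 1 the highest, and over all its genes the median log2 fold change was 1.07 with 3 genes called higher and 1 lower of 9 tested. The endoderm and yolk sac list (6 of 12) summed to 6315 and 6393 in WT, 1096 in KO#10 replicate 1 and 33 to 75 in the other KO libraries. *AFP* made up most of the WT sums, at 5585 in both, which is the highest value of every library. Pluripotency genes (9 of 11) summed to 519 and 992 in WT and 60 to 86 in KO, with KO#10 replicate 1 at 85, and surface ectoderm genes (7 of 14) to 366 and 503 in WT, 131 in KO#10 replicate 1 and 38 to 49 in the others. Neural progenitor genes (10 of 10) summed to 497 and 237 in WT and 301 to 563 in KO. The part of these cell types in the values of the members was not tested.

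**Figure D5:**
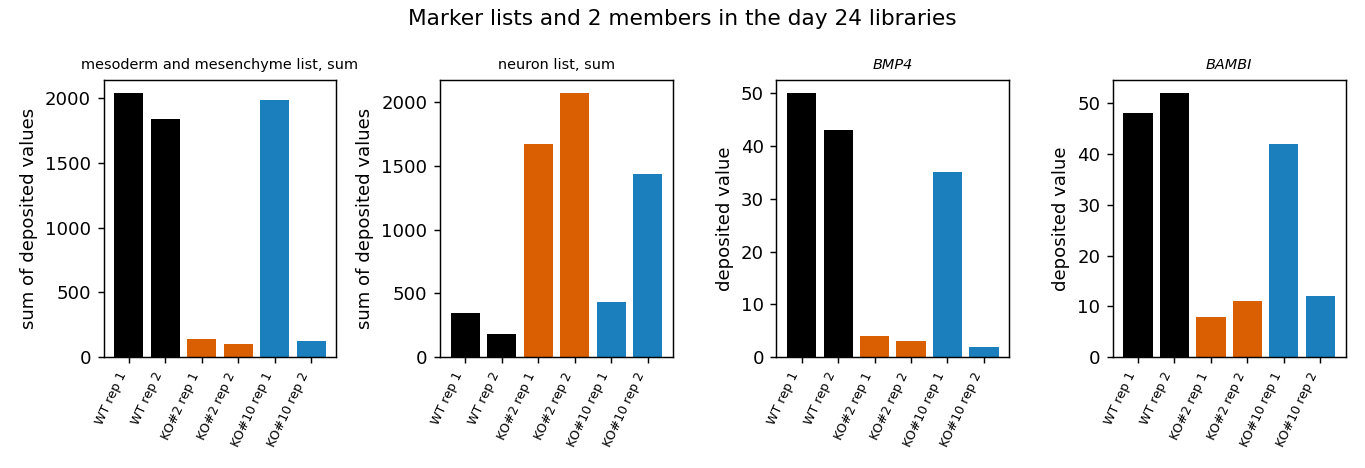
Summed deposited values of the mesoderm and mesenchyme list and of the neuron list, and deposited values of *BMP4* and *BAMBI*, in the 6 libraries of day 24 (1 bar per library, axes from 0). KO#10 replicate 1 is at 1985 for the mesenchyme list, 433 for the neuron list, 35 for *BMP4* and 42 for *BAMBI*, beside the WT libraries in each panel.

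Between the clones, no member differed past the threshold at day 24. KO#2 against WT called 3 of 25 members, *FST* (-2.27, adjusted p = 0.0422 in limma), *BAMBI* (-2.29, adjusted p = 0.0490) and *ACVR2A* (1.27, adjusted p = 0.0467), against 9.00% of all genes. KO#10 against WT called 0 of 25, against 0.280% of all genes. At an unadjusted p under 0.05 it had 8 of 25 members, against 24.3% of all genes. These contrasts share the WT libraries. KO#2 against KO#10 called 0 of 25 in limma, and 0.00% of all genes, with 0 members and 5.16% of all genes at an unadjusted p under 0.05. KO#10 had 1 library near WT and 1 near KO#2 for *BMP4*, *BAMBI* and *ID4*.

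Over time, *BMP4*, *BMP5* and *BAMBI* rose in WT between day 12 and day 24. *BMP4* was 3 and 4 in WT at day 12, and 0 to 4 in KO. *BMP5* was 2 in both WT libraries and 1 to 3 in KO, and *BAMBI* was 1 and 2 in WT and 1 to 2 in KO. All 3 genes were thus low in every library of day 12, and the lines overlapped. The rise in WT was a log2 of 3.40 for *BMP4* (adjusted p = 0.0234 in limma), 2.22 for *BMP5* (adjusted p = 0.0101) and 4.38 ± 0.56 for *BAMBI* (SE, adjusted p = 4.89e-04). *LTBP1* fell from 28 and 31 to 15 and 12 (-1.08, adjusted p = 0.0284), and *ACVR2B* fell from 66 and 49 to 25 and 31 (-1.0, adjusted p = 0.0224). These were 5 of 25 members (20%), against 15.1% of all 9952 genes tested (7.20% higher and 7.86% lower). With 2 libraries a group, *BMP4* and *LTBP1* lost the call when any WT library was left out, *ACVR2B* when any but WT day 12 replicate 2 was, and *BMP5* without WT day 12 replicate 1 or WT day 24 replicate 2. *BAMBI* kept it in each. *BMP4*, *BMP5* and *BAMBI* passed the filter through day 24 libraries alone. *ID4*, not called in WT over all libraries (1.30, adjusted p = 0.147), was called higher without KO#10 day 24 replicate 1, which enters this fit through the shared spread.

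In KO, 8 of 25 members were called between the days (32%), 6 higher and 2 lower, against 11.5% of all genes (5.88% higher and 5.59% lower). *BAMBI* rose by a log2 of 2.53 (adjusted p = 6.13e-04 in limma) and *BMP5* by 1.26 (adjusted p = 0.0203). *ACVR2A* rose from 11 to 16 at day 12 to 26 to 56 at day 24 (1.65, adjusted p = 2.12e-04). *BMPR2*, the BMP type II receptor, rose from 3 to 4 to 9 to 11 (1.26, adjusted p = 3.42e-04), *ID4* rose by 1.85 (adjusted p = 0.00810) and *BMPR1B* by 1.0 (adjusted p = 0.00842). *LTBP1* fell (-1.63, adjusted p = 3.62e-04), and *FST* fell from 11 to 17 at day 12 to 3 to 11 at day 24 (-1.11, adjusted p = 0.00845). *FST* in WT was 15 and 14 at day 12 and 24 and 25 at day 24, where the change was 0.72 (adjusted p = 0.183). Single libraries decided 4 of these calls. *BMPR2* reached 10 only in the KO#2 libraries of day 24, the group where it was high, and without either it was not tested. *BMP5* lost its call without KO#2 day 12 replicate 1 (1.08, adjusted p = 0.0566 in limma) and without KO#10 day 24 replicate 1 (0.87, under 2-fold). *BMPR1B* went under 2-fold without replicate 1 of KO#2 on either day or of KO#10 at day 12 (0.72 to 0.96). *FST* did so without replicate 2 of KO#2 at day 24 or of KO#10 on either day (-0.88 to -0.99).

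The difference between the days was itself compared between KO and WT. No member was called in this interaction (0 of 25 in limma), against 1.31% of all genes. At an unadjusted p under 0.05 there were 7 members, against 21.5% of all genes. *FST* had the lowest adjusted p, 0.0698 (limma), with a log2 difference of -1.83, and it was called when the replicate number was a block, where 3.7% of all genes were. *BMP4* (-1.97, adjusted p = 0.374) and *BAMBI* (-1.85, adjusted p = 0.154) were not called. Without KO#10 day 24 replicate 1, 2 members were called higher (*ID4* and *ACVR2A*) and 4 lower (*BMP4*, *BAMBI*, *FST* and *ID1*), against 9.26% of all genes.

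Of 64 other genes of the pathway, 46 had values and 38 passed the filter at day 24. *CRIM1*, which encodes a BMP-binding membrane protein, was called higher, at 5 and 7 in WT and 14 to 16 in KO libraries (1.21 on the log2 scale, adjusted p = 0.0196 in limma). *FURIN*, the protease that cleaves TGF-β family precursors, was called lower, at 17 and 19 in WT and 6 to 10 in KO (-1.18, adjusted p = 0.0284). *TDGF1*, a NODAL co-receptor that is also a pluripotency marker, was called lower (adjusted p = 0.0181), at 30 and 112 in WT and 0 to 1 in KO. *FOXH1*, a DNA-binding partner of SMAD2 and SMAD3, was 11 and 37 in WT, was listed at 0 in all KO libraries and was called lower (adjusted p = 0.0369 in limma). No other gene of the list was called at day 24 (1 higher and 3 lower of 38, against 8.01% of all genes tested). *CRIM1* passed the filter through KO libraries alone, and *TDGF1* and *FOXH1* through WT libraries alone. These 3 were thus tested only because the group where they were high passed. At day 12, 1 of 35 was called, against 0.0900% of all genes tested. It was *TDGF1*, lower in KO (adjusted p = 0.00641 in limma), at 50 and 110 in WT and 3 to 5 in KO. It passed the filter through WT libraries alone.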

How the data were processed

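Total RNA of COs was depleted of ribosomal RNA and sequenced paired-end with a strand-specific kit. The submitters' processing notes name bcl2fastq, Bowtie2, RSEM and the build mm10, without versions, although all 10976 gene identifiers are human and in GENCODE release 29 (GRCh38). The normalization is not given in the sources used here. Values as deposited by the authors are whole-number normalized scores, with totals of 473637 to 483149 that do not show depth, so that no counting interval could be given. Coordinates are those of the files, and the intervals of 29 of 29 members overlap that annotation.

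The members were chosen by symbol, and the members, marker lists and tests were chosen with earlier results of these data known. Values were transformed as log2 (value + 1) and fitted with limma 3.58.1 (R 4.3.3; lmFit, eBayes with a variance trend) over genes with at least 10 in at least 2 libraries fitted. KO against WT was fitted within a day, day contrasts and the interaction over 12 libraries, and clones as 3 groups a day. An exact permutation test of 2 against 4 libraries cannot go below 0.0667 and was not used. This scale makes changes of low genes look smaller. The tests were tried on simulated data. Library values were to be named for called members and for the 1 or 2 largest changes of a role, and the other members given by library were chosen after their values were seen. Alternatives were other filters and pseudocounts, the replicate number as a block, median centring, no variance trend, all 12 libraries in 1 fit, clones as groups and each library left out.

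At day 12, libraries that share a replicate number departed from their group means together (r across 8885 genes of 0.459 for WT and KO#2, 0.428 for WT and KO#10, and 0.598 for KO#2 and KO#10). The numbers were read as pairs there, but the main day 12 fit did not use them. The fit with the replicate as a block was an alternative. At day 24 r was 0.212, -0.106 and 0.346 over 9289 genes, and the numbers were not read as pairs. The numbers come from the labels, which do not say what they stand for.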

Additional observations from a re-analysis of the deposited data

Results flagged for a closer look

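In each gene the 4 KO libraries of a day were searched for a highest or lowest value that lay apart from the others by Dixon's 95% limit. Of 58 groups of 4 libraries, 11 held such a value. Chance gives about 1 in 20 for values without ties, and among all genes 10.4% of such groups held one. KO#10 replicate 1 at day 24 was that library in 6 of them (26.3% of those over all genes): *BMP4* at 35 (2 to 4 in the other KO libraries), *BMP5* at 15 (4 to 5), *BMP7* at 25 (11 to 12), *LTBP1* at 19 (9 to 10), *BAMBI* at 42 (8 to 12) and *ID1* at 86 (38 to 45). KO#2 replicate 1 at day 24 stood apart in *LTBP3* at 8 (11 in the others) and in *BMPR1B* at 38 (16 to 18). At day 12, *BAMBI* was 1 in KO#2 replicate 1 (2 in the others), *FST* was 17 in KO#10 replicate 2 (11 to 12) and *BMPR1A* was 22 in KO#10 replicate 1 (19). At low whole-number values such as those of *BAMBI* at day 12 and *LTBP3*, the gap is 1 to 3 units.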

How the results depend on the processing

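None of the members whose fold change was recomputed reversed its direction under the alternatives run. With all 12 libraries in 1 fit, 1 member was called higher (*BMPR1B*) and 3 lower (*BMP4*, *BAMBI* and *FST*) at day 24, in which 11.2% of all genes were called. Leaving out 1 library gave 0 to 3 members called higher and 0 to 6 lower at day 24. The highest counts came without KO#10 replicate 1, where 14.7% of all genes were called. The lower count was 0 without any other KO library, where 0.165% to 2.88% of all genes were called. In the interaction, fits without 1 KO library called 0.232% to 9.26% of all genes. For the interaction the ranges were 0 to 2 higher and 0 to 4 lower, for the days in WT 1 to 4 higher (4 without KO#10 day 24 replicate 1, with *ID4* added) and 0 to 2 lower, and for the days in KO 4 to 6 higher and 1 to 2 lower. Without a filter on low values, 5 members were called higher between the days in WT, with *SMAD9* and *NOG* added. With a pseudocount of 0.1, *BMP4* lost its call between the days in WT (adjusted p = 0.0912 in limma). The cause was not tested. With the replicate number as a block, 1 member (*FST*) was called lower in the interaction, and counts of members called in the other comparisons did not move. The depth of the libraries is unknown, and low values are whole numbers, so that small differences in genes such as *BMP5*, *NOG* and *SMAD9* rest on few units.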

Other observations

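The homeobox genes *MSX1* and *MSX2*, which BMP signals are known to switch on, were split between the libraries of day 24 in the way seen for *BMP4*, and were picked after their values were seen. *MSX2* was 23 and 35 in WT, 7 and 12 in clone KO#2, and 30 and 14 in clone KO#10. *MSX1* was 9 and 11 in WT, 3 and 7 in clone KO#2, and 18 and 6 in clone KO#10. Neither was called between KO and WT over all 4 KO libraries.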
